A study of Homo sapiens with 8 samples.

Results

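The RAB genes encode small GTPases that mark the membranes of the vesicle traffic system, and they are described here in hCMEC/D3 cells. The members were the genes of the deposited table whose symbol is RAB followed by a number and at most 1 letter from A to D. The rule found 59 of 23346 listed genes. RAB7L1, an older symbol of RAB29, does not match it and was not counted. hCMEC/D3 is a clonal line of human brain microvascular endothelial cells, immortalised with telomerase and a viral large T antigen, and stands in for the blood-brain barrier in culture. Polyadenylated RNA from 8 replicates of the line was sequenced. All 8 formed 1 group with no treatment, genotype or time point named, and the aim was a description of what the line expresses. The labels do not say whether the replicates were separate cultures, so p-values below measure the spread between these libraries only, which may be technical.

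A RAB protein switches between a GTP-bound state, which sits on a membrane and recruits effectors, and a GDP-bound state, which a dissociation inhibitor (GDI) keeps soluble. Exchange factors load GTP and GTPase-activating proteins end the active state. RAB5 proteins mark early endosomes, RAB4 and RAB11 proteins recycling routes, RAB7 and RAB9 proteins the late endosome, RAB3, RAB8, RAB10, RAB13 and RAB27 proteins routes to the plasma membrane, and RAB1, RAB2 and RAB6 proteins traffic between the endoplasmic reticulum and the Golgi. In endothelium, RAB27A and RAB3 proteins are known for the maturation and release of Weibel-Palade bodies, the storage granules of von Willebrand factor. RAB13 is known at tight junctions, and RAB5 and RAB11 proteins act on the route that endocytosed receptors take back to or across the cell.

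The bases around the P-loop, the stretch that holds the phosphates of the nucleotide, show how close some members are there and where they differ. How well reads of whole transcripts were told apart cannot be read from such windows. Each window has 60 bases, 5′ to 3′, on the coding strand: the 24 bases of the P-loop motif and 18 on either side. They were read from the GENCODE 44 canonical transcripts lifted to GRCh37. Capitals mark bases that differ from the first gene of each set.
RAB5A: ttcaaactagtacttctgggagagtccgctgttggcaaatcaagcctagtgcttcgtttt
RAB5B: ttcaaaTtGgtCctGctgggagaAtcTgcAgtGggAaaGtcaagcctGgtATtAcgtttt
RAB5C: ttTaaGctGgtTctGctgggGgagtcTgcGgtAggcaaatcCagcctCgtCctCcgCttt
RAB11A: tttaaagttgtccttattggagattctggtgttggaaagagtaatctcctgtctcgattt
RAB11B: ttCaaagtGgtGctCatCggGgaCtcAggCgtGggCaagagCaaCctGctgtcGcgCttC
RAB25: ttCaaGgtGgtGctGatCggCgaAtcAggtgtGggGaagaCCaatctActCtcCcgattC
RAB1A: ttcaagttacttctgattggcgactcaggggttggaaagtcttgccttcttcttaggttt
RAB1B: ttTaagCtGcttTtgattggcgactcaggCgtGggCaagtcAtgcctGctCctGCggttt
RAB8A: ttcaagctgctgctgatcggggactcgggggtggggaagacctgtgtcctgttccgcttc
RAB8B: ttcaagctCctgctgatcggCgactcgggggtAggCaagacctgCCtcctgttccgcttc

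RAB11B differed from RAB11A at 17 of 60 bases, and all 17 were the third base of a codon. RAB5C differed from RAB5A at 14 bases, all 14 of them the third base of a codon, while for RAB5B this held for 12 of 14. RAB1B differed from RAB1A at 12 bases, 9 of them in that position, and RAB8B from RAB8A at 6, of which 5 were. RAB25 differed from RAB11A at 17 bases, 16 of them in that position. The windows also differed in base composition. GC content was 36.7% in RAB11A and 60% in RAB11B, 43.3% in RAB1A and 53.3% in RAB1B, and 45.0% in RAB5A against 56.7% in RAB5C. RAB8A and RAB8B both had 61.7%. Over the whole canonical transcript the contrasts were wider for these pairs: 37% in RAB11A against 63.1% in RAB11B, 38.2% in RAB1A against 60.4% in RAB1B, and 52.2% in RAB8A against 34.9% in RAB8B.

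Libraries held 69388544 to 90205244 counts. Every count deposited was an even number, and counting error was computed on halved counts. The libraries differed along transcript length, measured as the slope of each gene's deviation from its mean on log2 length, over detected genes outside the RAB and regulator lists. This length slope was between 0.09 and 0.15 in replicates 1, 3, 4, 5 and 6, which were higher for long transcripts. It was -0.22 in replicate 2, -0.11 in replicate 7 and -0.34 in replicate 8, where long transcripts were lower. The share of counts on 87 ribosomal protein genes moved with it, from 3.88% to 7.50%. All 12 endothelial markers were detected, with summed levels of 3530 to 5759 CPM (a gene's counts scaled to a common library size). Of the markers of other cells, 0 of 6 were detected for astrocytes, 1 of 6 for neurons (2.91 to 6.75 CPM in sum), 1 of 6 for microglia or leukocytes (CD68, mean 58.8 CPM), 3 of 6 for mural cells, 2 of 6 for epithelium and 2 of 5 for melanocytes. STMN2 of neurons and AQP4 of astrocytes were at 0 in all 8 libraries.

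Most RAB genes were expressed. A gene was called detected at 1 CPM or more in all 8 libraries. Of the 59 RAB genes, 44 (74.6%) met this, against 51.3% of all listed genes. The listed genes include small RNA genes, whereas the RAB genes are all protein-coding. Of listed genes with a length 58.1% were detected, and the share over protein-coding genes alone is not given. All 7 early endosome genes were detected, as were 7 of 9 recycling genes, 5 of 7 of the late endosome, 8 of 12 secretory genes, 12 of 18 Golgi genes and 5 of 6 with other roles. RAB26 was the detected member nearest the threshold, with a lowest value of 1.21 CPM, followed by RAB36 at 1.99 and RAB17 at 2.26. Just outside stood RAB37, with a lowest value of 0.578 CPM, RAB41 with 0.446 and RAB27B with 0.222. The 15 members not detected were RAB25 and RAB4B (recycling), RAB38 and RAB9B (late endosome), RAB3A, RAB3C, RAB27B and RAB37 (secretory), RAB6C, RAB19, RAB33A, RAB39A, RAB39B and RAB41 (Golgi), and RAB40A. Several of these are known for a restricted tissue: RAB25 for epithelium, RAB38 for pigment cells, RAB3A and RAB3C for neurons.

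As a family the RAB genes held a near-constant part of each library. Together they took between 0.365% and 0.376% of counts (0.371% ± 0.00407, SD, n = 8), a highest-to-lowest ratio of 1.03. The 95% Wilson intervals, on halved counts, were 0.363% to 0.367% in the lowest library and 0.374% to 0.378% in the highest. The 10 genes highest by CPM held 55.7% of all RAB counts. To set genes beside each other, CPM was divided by canonical transcript length in kilobases (RPKM). On that scale the median RAB gene stood at 8.95 RPKM and the median of 19946 listed genes with a length at 1.96 RPKM. The most abundant transcripts per length were RAB1B, RAB7A, RAB5C and RAB13, 1 each of the Golgi, late endosome, early endosome and secretory roles. This order depends on the length used. With the length of all annotated exons RAB1B (148 RPKM) and RAB5C (79.6) still led, but RAB7A stood at 40.8 and RAB13 at 44.4 RPKM, below RAB1A (55.9), RAB32 (54.3) and RAB10 (53.5).

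**Figure D1:**
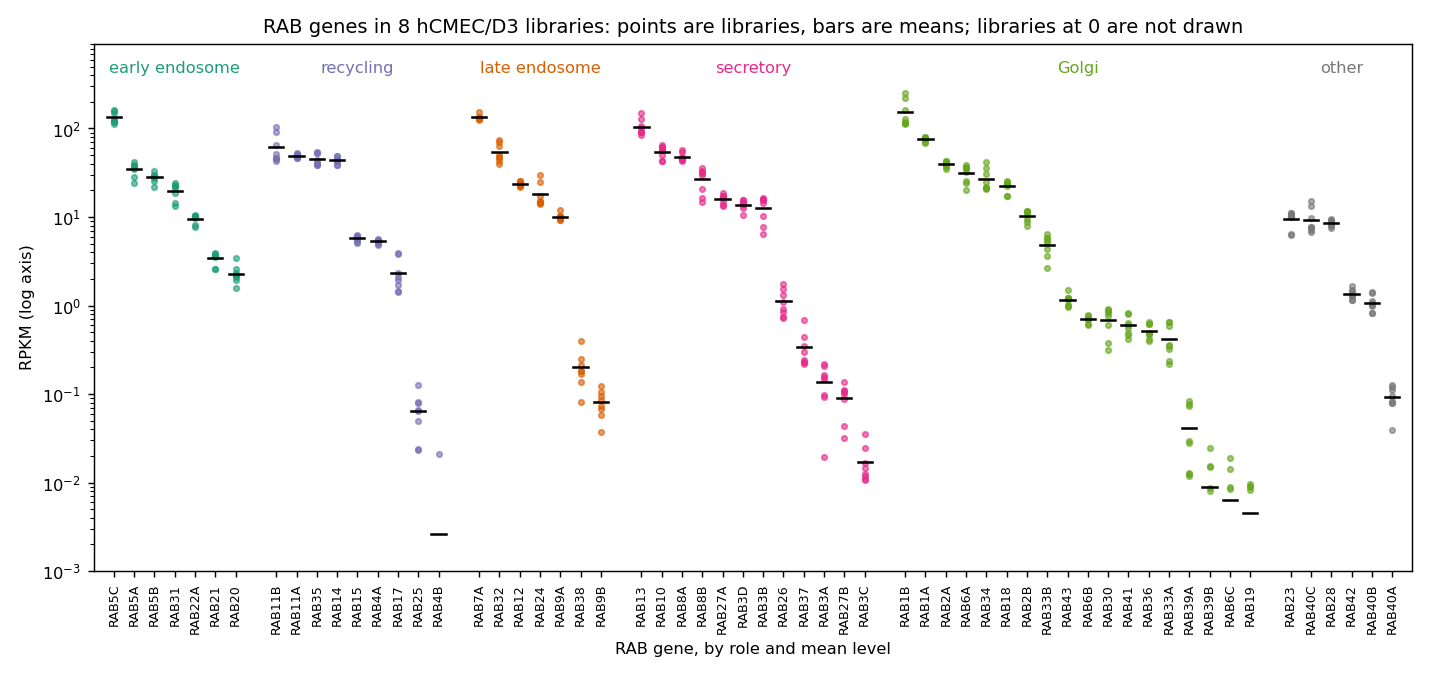
RPKM (log axis) of the 59 RAB genes in 8 libraries, grouped by role and ordered by mean. Points are libraries and bars are means, and libraries at 0 are not drawn. Each role class has members near or above 50 RPKM except the one labelled other, and the Golgi class spans the widest range, from RAB1B (152) to RAB19, RAB6C and RAB39B near 0.

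On canonical length, the replicates set only part of the order at the top. RAB1B had the highest mean, 152 ± 53.8 RPKM (SD, n = 8), yet exceeded RAB7A (134 ± 8.99) in 3 of 8 libraries only. RAB7A exceeded RAB5C (134 ± 19.6) in 5 of 8. These 3 neighbours therefore did not separate beyond their spread, whereas RAB5C exceeded RAB13 (105 ± 22.4) and RAB13 exceeded RAB1A (75.6 ± 4.38) in 8 of 8, the latter a direction that turned with the length of all exons. From RAB1A down through RAB11B (61.8 ± 23.6), RAB10 (54.9 ± 8.46), RAB32 (54.3 ± 13.1), RAB11A (49.0 ± 2.15), RAB8A (47.7 ± 5.15), RAB35 (45.3 ± 6.97) and RAB14 (43.7 ± 3.72), no gene exceeded the next in all libraries; the counts ran from 3 to 7 of 8. RAB14 exceeded RAB2A (39.5 ± 2.71), and RAB2A exceeded RAB5A (34.9 ± 5.8), in 8 of 8.

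The early endosome class was complete, with a median of 19.5 RPKM over its 7 genes and 17.1% ± 0.791 (SD, n = 8) of summed RAB RPKM. Over detected members only, its median log2(RPKM + 0.1) was 4.29. Recycling (5.45), late endosome (4.58) and secretory genes (4.34) stood above it on that measure, and Golgi (3.92) and other genes (3.11) below. The 3 RAB5 isoforms act on the same early endosomes, and RAB5C was the most abundant of them. Of the 50-base stretches of RAB5C, 43.9% occur in another annotated gene, against 3.77% for RAB5A and 1.32% for RAB5B. With genes overlapping its own locus left out, the RAB5C share was 0%. Its level is therefore less certain only through the counting of overlapping genes, which is not given. RAB5C (chromosome 17, 40276994 to 40307062, minus strand, 6 exons) ran from 187 CPM through a median of 203 to 267 CPM. RAB5A (chromosome 3, 19988572 to 20026667, plus strand) ran from 60.5 through 93.4 to 104 CPM, and RAB5B from 115 through 153 to 175 CPM. RAB5C was high in replicates 2, 7 and 8, and RAB5A was lowest in the same 3 libraries, so the isoforms moved apart there. RAB5B had its lowest value in replicate 7.

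Per length, RAB5A stood below RAB5C by 1.94 ± 0.45 on the log2 scale (SD, n = 8), lower in 8 of 8 libraries, and RAB5B was lower than RAB5C by 2.25 ± 0.30, also in 8 of 8. Both differences had an exact two-sided sign-flip permutation p of 0.00781, the smallest that 8 libraries allow, and 0.00919 after Benjamini-Hochberg adjustment over the 20 pairs compared. In linear terms RAB5A stood at between 0.148 and 0.338 of RAB5C. RAB31 and RAB22A, close relatives that act between early endosomes and the Golgi, reached 19.9 ± 4.08 and 9.55 ± 1.04 RPKM. RAB31 ran from 51.9 through 85.3 to 94.3 CPM and RAB22A from 66.6 through 86.4 to 91.4 CPM. RAB22A was lower than RAB31 per length by 1.03 ± 0.17 on the log2 scale in 8 of 8 libraries (exact permutation p = 0.00781, adjusted 0.00919), a difference that rests on length, since without it the log2 ratio of CPM was 0.11. RAB21, which helps internalise integrins, stood at 3.43 RPKM and RAB20 at 2.29 RPKM.

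In the recycling class, both RAB11 genes, RAB35 and RAB14 were abundant, while the epithelial RAB25 was at the floor. The class median was 5.70 RPKM over 9 genes, and the class held 15.6% ± 0.758 of summed RAB RPKM (SD, n = 8). RAB11A, which marks the recycling endosome, was the steadiest member, from 230 through 236 to 255 CPM, a ratio of 1.11 and the smallest among detected RAB genes. RAB11B ran from 68.6 through 77.8 to 165 CPM, with 165 in replicate 8 and 146 in replicate 2 above all other libraries. RAB11A lies on chromosome 15 (66161797 to 66184329, plus strand, 5 exons, 4895 nt) and RAB11B on chromosome 19 (8455205 to 8469317, plus strand, 5 exons, 1590 nt).

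Which RAB11 gene was higher per length differed between libraries. The log2 ratio of RAB11A to RAB11B averaged -0.25 ± 0.51 (SD, n = 8), ranged from -1.02 to 0.25 and was positive in 4 of 8 libraries, which did not pass the test (exact permutation p = 0.242, adjusted 0.269). On the authors' CQN values, which adjust each library for length and GC content, the same difference was 0.25 and passed (exact permutation, adjusted p = 0.00911). It was largest in replicates 8 and 2, where RAB11A had CQN values of 8.72 and 8.46 against its median of 7.92. RAB11B lay between 7.75 and 7.955 on that scale. Over the 5 libraries with a positive length slope the ratio on RPKM was 0.09. RAB25, whose P-loop window differs from that of RAB11A as shown above, had 2 to 10 counts per library and stood 8.25 ± 0.30 below RAB11A on the log2 scale with a pseudocount of 0.1 RPKM, and 5.55 below with a pseudocount of 1. The pseudocount sets the size of this difference and of the others below that involve a gene not detected, so both values are given. RAB35, which returns cargo from endosomes to the plasma membrane, ran from 111 through 121 to 154 CPM. RAB14, active between the Golgi and endosomes, ran from 161 through 180 to 202 CPM.

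RAB4A, the rapid-recycling RAB, was low but steady at 14.6, 16.1 and 16.9 CPM for the lowest, median and highest library (5.30 ± 0.262 RPKM, SD, n = 8). RAB4B had 2 counts in replicate 7 and 0 in the other 7 libraries, where 3 halved counts would give 0.0665 to 0.0880 CPM. Every 50-base stretch of its transcript also lies in a listed read-through transcript, MIA-RAB4B or RAB4B-EGLN2. Its reads could be discarded as ambiguous or assigned to those genes, so its level is not read. RAB4B still enters the members not detected and the recycling class count and median at its deposited value. RAB15 stood at 5.72 RPKM. RAB17, known from epithelial transcytosis, reached 2.33 RPKM and ran from 2.26 through 3.25 to 6.22 CPM, with its 2 highest values in replicates 2 and 8.

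RAB7A was the highest late endosome gene on canonical length (134 RPKM), and RAB32 on the length of all exons (54.3 against 40.8 RPKM). RAB7A, which directs late endosomes to lysosomes (chromosome 3, 128444979 to 128533641, plus strand, 6 exons, 2185 nt), ran from 273 through 290 to 338 CPM, the highest library being replicate 8. RAB9A, which returns mannose 6-phosphate receptors to the Golgi, ran from 18.6 through 20.1 to 24.5 CPM (10.1 ± 0.893 RPKM), the highest library being replicate 7. Per canonical length RAB7A exceeded RAB9A by 3.73 ± 0.13 on the log2 scale in 8 of 8 libraries (exact permutation p = 0.00781, adjusted 0.00919), and by 2.07 with the length of all exons.

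RAB32, known for the biogenesis of lysosome-related organelles and for mitochondria, stood at 54.3 ± 13.1 RPKM (SD, n = 8). It ran from 42.0 through 51.9 to 79.7 CPM and was highest in replicates 8, 7 and 2. Its relative RAB38, which acts with it in melanosome formation, ran between 0.117 and 0.576 CPM and was 7.52 ± 0.41 lower on the log2 RPKM scale in 8 of 8 libraries (exact permutation p = 0.00781, adjusted 0.00919), or 5.49 lower with a pseudocount of 1. RAB12 stood at 23.9 ± 1.35 RPKM and ran from 47.2 through 50.7 to 55.4 CPM. RAB24, linked to autophagy, stood at 18.2 ± 6.00 RPKM, and ran from 22.5 through 23.9 to 47.9 CPM, the highest library being replicate 8. RAB9B stayed between 0.142 and 0.465 CPM, 5.82 ± 0.29 below RAB9A on the log2 RPKM scale (adjusted exact permutation p = 0.00919), or 3.35 below with a pseudocount of 1. The class held 17.7% ± 0.584 of summed RAB RPKM, with a median of 17.5 RPKM over its 7 genes.

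The secretory class held 20.5% ± 1.47 of summed RAB RPKM (SD, n = 8, from 18.5% to 22.0% over libraries), led by RAB13, RAB10 and RAB8A. Of RAB27A and the RAB3 genes, named above for Weibel-Palade bodies, RAB27A, RAB3D and RAB3B were detected and RAB3A and RAB3C were not. RAB13, the tight junction RAB (chromosome 1, 153954128 to 153958806, minus strand, 8 exons, 1164 nt), ran from 97.4 through 112 to 174 CPM and was highest in replicate 8. Of the 50-base stretches of its transcript, 56.9% occur in another annotated gene, a read-through or a processed pseudogene, so its level is uncertain. RAB10, which carries membrane proteins such as glucose carriers to the surface, ran from 154 through 203 to 234 CPM, lowest in replicates 2 and 8. RAB10 was lower than RAB13 per canonical length by 0.92 ± 0.50 in 8 of 8 libraries (exact permutation p = 0.00781, adjusted 0.00919), and this direction turned when all exons were used as the length (0.28) or on CQN values (0.10). Without replicates 2, 7 and 8 it was -0.59.

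RAB8A and RAB8B, which serve transport from the Golgi to the plasma membrane, differed in their course across libraries. RAB8A ran from 110 through 118 to 146 CPM (47.7 ± 5.15 RPKM) and RAB8B (chromosome 15, 63481728 to 63559973, plus strand) from 71.1 through 146 to 170 CPM (26.7 ± 8.10 RPKM). RAB8B was lowest in replicates 8, 2 and 7, and RAB8A was highest in replicates 8 and 2. RAB8A exceeded RAB8B per length by 0.89 ± 0.61 on the log2 scale in 8 of 8 libraries (exact permutation p = 0.00781, adjusted 0.00919), a linear ratio of 1.31 to 3.85. With the length of all exons in place of the canonical transcript the mean difference was 0.04 and did not pass (adjusted p = 0.883). Without replicates 2, 7 and 8 it was 0.49 on canonical length. For RAB8A 42.9% of 50-base stretches occur in another annotated gene, and 6.3% with genes overlapping its own locus left out.

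Among granule RAB genes, RAB27A (chromosome 15, 55495164 to 55582013, minus strand, 7 exons) ran from 45.5 through 58.1 to 65.1 CPM (16.1 ± 2.04 RPKM, SD, n = 8). Its paralog RAB27B, known from secretory cells and platelets, ran from 0.222 through 0.717 to 0.964 CPM and was 6.43 ± 0.16 below RAB27A on the log2 RPKM scale in 8 of 8 libraries (exact permutation p = 0.00781, adjusted 0.00919). The difference was 3.97 with a pseudocount of 1 and 4.74 with the length of all exons. RAB3D ran from 44.9 through 59.7 to 66 CPM (13.8 ± 1.64 RPKM) with its lowest value in replicate 7. RAB3B (chromosome 1, 52373628 to 52456436, minus strand, 5 exons, 12780 nt) ran from 81.5 through 192 to 207 CPM (12.8 ± 4.03 RPKM), and replicates 8, 2 and 7, at 81.5, 98.0 and 132 CPM, lay below the other 5.

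RAB3B and RAB3D did not separate per length: the log2 ratio averaged -0.18 ± 0.56, was positive in 5 of 8 libraries and did not pass the test (exact permutation p = 0.492, adjusted 0.518). On CQN values RAB3B was the higher by 0.74 (adjusted p = 0.00911), and over the 5 libraries with a positive length slope the RPKM ratio was 0.15. RAB3A, the synaptic vesicle RAB, stayed between 0.0294 and 0.331 CPM, 5.74 ± 0.84 below RAB3B on the log2 RPKM scale (adjusted exact permutation p = 0.00919), or 3.53 below with a pseudocount of 1, and RAB3C between 0.0946 and 0.310 CPM. RAB26, known from secretory granules and autophagy, ran from 1.21 through 1.67 to 2.90 CPM. RAB37 ran from 0.578 through 0.709 to 1.77 CPM and passed 1 CPM in replicates 2 and 8 only.

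The Golgi class held the largest share of summed RAB RPKM, 26.9% ± 0.959 (SD, n = 8), but its median gene stood at 0.895 RPKM, with 6 of its 18 genes not detected. RAB1B and RAB1A, which direct vesicles from the endoplasmic reticulum to the Golgi, led it. RAB1B (chromosome 11, 66036056 to 66044963, plus strand, 6 exons, 1901 nt) ran from 215 through 232 to 476 CPM, with 476 in replicate 8, 415 in replicate 2 and 304 in replicate 7 above the other 5 libraries. RAB1A (chromosome 2, 65313988 to 65357435, minus strand) ran from 167 through 186 to 196 CPM, with its lowest values in replicates 8 and 2. RAB1A was lower than RAB1B per length by 0.94 ± 0.53 in 8 of 8 libraries (exact permutation p = 0.00781, adjusted 0.00919), and the linear ratio ran from 0.273 to 0.684. Without replicates 2, 7 and 8 the difference was -0.60. For RAB1B 36.8% of 50-base stretches occur in another annotated gene, and 4.7% with genes overlapping its own locus left out.

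RAB2A, also of the early secretory pathway, ran from 131 through 147 to 158 CPM, and exceeded RAB2B (23.0, 32.1 and 34.1 CPM) by 1.93 ± 0.16 on the log2 RPKM scale in 8 of 8 libraries (exact permutation p = 0.00781, adjusted 0.00919). RAB6A, which drives retrograde transport and exocytic carriers at the Golgi, ran from 67.2 through 113 to 128 CPM, lowest in replicates 8, 2 and 7. It exceeded the mainly neuronal RAB6B (3.34, 3.94 and 4.40 CPM) by 5.26 ± 0.28 (exact permutation p = 0.00781, adjusted 0.00919), or 4.21 with a pseudocount of 1. RAB6A shares 30.3% of its 50-base stretches with other annotated genes, among them RAB6C, which had 0 to 4 counts per library.

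RAB18, of the endoplasmic reticulum and lipid droplets, ran from 84.0 through 115 to 126 CPM (22.3 ± 3.23 RPKM, SD, n = 8), and RAB34, which acts at the Golgi and in cilium formation, from 35.7 through 40.8 to 72.0 CPM (27.2 ± 7.88 RPKM). RAB33B, which works with RAB6 proteins and in autophagy, ran from 11.2 through 22.2 to 27.5 CPM and was lowest in replicate 8. RAB33A, from 0.205 through 0.336 to 0.622 CPM, was lower than RAB33B by 3.28 ± 0.78 on the log2 RPKM scale in 8 of 8 libraries (exact permutation p = 0.00781, adjusted 0.00919), and the log2 ratio was -2.02 with a pseudocount of 1. RAB30 varied most of the detected genes, from 3.10 CPM in replicate 8 through 7.89 to 8.94 CPM, a ratio of 2.89. RAB36 stood at 0.518 RPKM and RAB43 at 1.16 RPKM, and 90.7% of the RAB43 stretches lie in other annotated genes, chiefly the read-through ISY1-RAB43. RAB39A, RAB39B, RAB19 and RAB41 were not detected. RAB39B and RAB19 had at most 6 and 2 counts in a library.

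Among the genes with other roles, RAB23, known from cilia and Hedgehog signalling, ran from 30.6 through 48.8 to 54.2 CPM (9.51 RPKM), RAB40C from 18.2 through 20.7 to 41.1 CPM (9.35 RPKM) and RAB28 from 12.6 through 14.7 to 16.1 CPM (8.58 RPKM). RAB40C was highest in replicates 8 and 2 and RAB23 lowest in the same libraries. These genes held 2.21% ± 0.0862 of summed RAB RPKM (SD, n = 8). RAB40B and RAB42 stayed between 2.57 and 5.39 CPM.

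Across roles, 2 further pairs compared the leading genes. RAB7A and RAB5C, the late and early endosome leaders, did not separate on canonical length, with a log2 ratio of 0.01 ± 0.14 that was positive in 5 of 8 libraries (exact permutation p = 0.781, adjusted 0.781). Other scales separated them in opposite directions: the ratio was -0.95 with the length of all exons (exact permutation, adjusted p = 0.0104), 0.43 on CPM (0.00919) and 0.40 on CQN values (0.00911). RAB11B stood below RAB7A by 1.20 ± 0.42 in 8 of 8 libraries (exact permutation p = 0.00781, adjusted 0.00919), though with the length of all exons the difference was -0.02 and did not pass (adjusted p = 0.883). Of the 20 pairs, RAB4A with RAB4B is not read. Of the other 19, 16 passed, and RAB11A with RAB11B, RAB3B with RAB3D and RAB7A with RAB5C were the 3 that did not. Both genes were detected in 13 of the 19, among them those 3. In the remaining pairs 1 gene was not detected, so passing there adds little to the detection result.

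**Figure D2:**
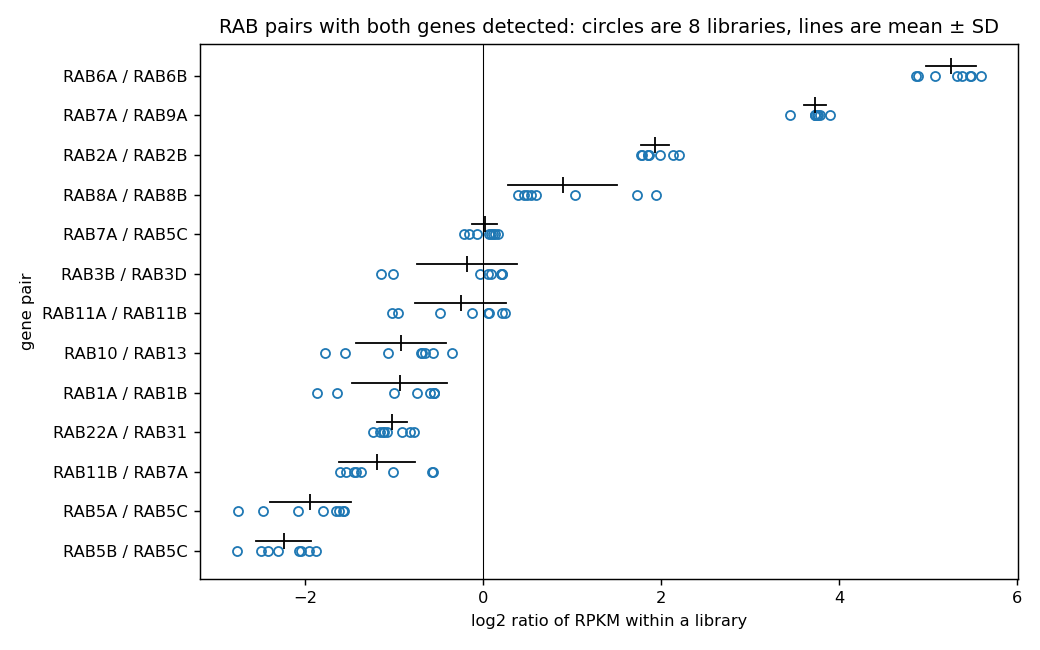
Log2 ratio of RPKM within a library (x axis) for the 13 gene pairs with both genes detected; circles are the 8 libraries and lines are mean ± SD. The circles of RAB11A/RAB11B, RAB3B/RAB3D and RAB7A/RAB5C lie on both sides of 0, and those of the other 10 pairs lie on 1 side.

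Much of the movement of single RAB genes followed the length slope of the libraries. A slope on the position of each library, from 0 for replicate 3 (highest length slope) to 1 for replicate 8 (lowest), was fitted to all 11980 detected genes with edgeR's quasi-likelihood test. At an adjusted p below 0.05, 14 of 44 RAB genes were higher and 19 lower toward replicate 8, where 37.4% of all detected genes were higher and 35.3% lower. The called share of RAB genes, 75.0%, is near that of the whole table, so following the axis is not particular to them. The position was itself measured on these libraries, on genes outside the RAB list.

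Higher toward replicate 8 were RAB17 (log2 change 1.20 ± 0.21, SE, adjusted p = 4.78e-04), RAB11B (1.18 ± 0.07, adjusted p = 2.39e-07), RAB1B (1.09 ± 0.06, adjusted p = 2.29e-07) and RAB40C (1.03 ± 0.08). They were followed by RAB24 (0.95), RAB34 (0.91), RAB26 (0.86), RAB32 (0.72), RAB13 and RAB20 (both 0.62), RAB40B (0.49), RAB35 (0.46), RAB5C (0.45) and RAB8A (0.24). Lower were RAB30 (-1.49 ± 0.16, SE, adjusted p = 1.53e-05), RAB3B (-1.38 ± 0.06, adjusted p = 1.07e-07), RAB8B (-1.28 ± 0.07, adjusted p = 2.34e-07), RAB33B (-1.08 ± 0.11) and RAB6A (-0.90 ± 0.06). The other 14 lower genes lay between -0.84 for RAB23 and -0.21 for RAB1A. The adjusted p-values are from edgeR's quasi-likelihood fit.

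The 11 genes not called were RAB7A (log2 change 0.14, adjusted p = 0.0569, quasi-likelihood), RAB11A (-0.07), RAB4A (0.04), RAB3D (-0.06), RAB5B (-0.13), RAB9A, RAB12, RAB15, RAB28, RAB43 and RAB6B. By role, the late endosome had 2 higher and 0 lower of 5 detected genes and recycling 3 and 1 of 7. Early endosome genes were 2 and 4 of 7, secretory genes 3 and 4 of 8 and Golgi genes 2 and 8 of 12. Whether these roles differ was not tested.

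**Figure D3:**
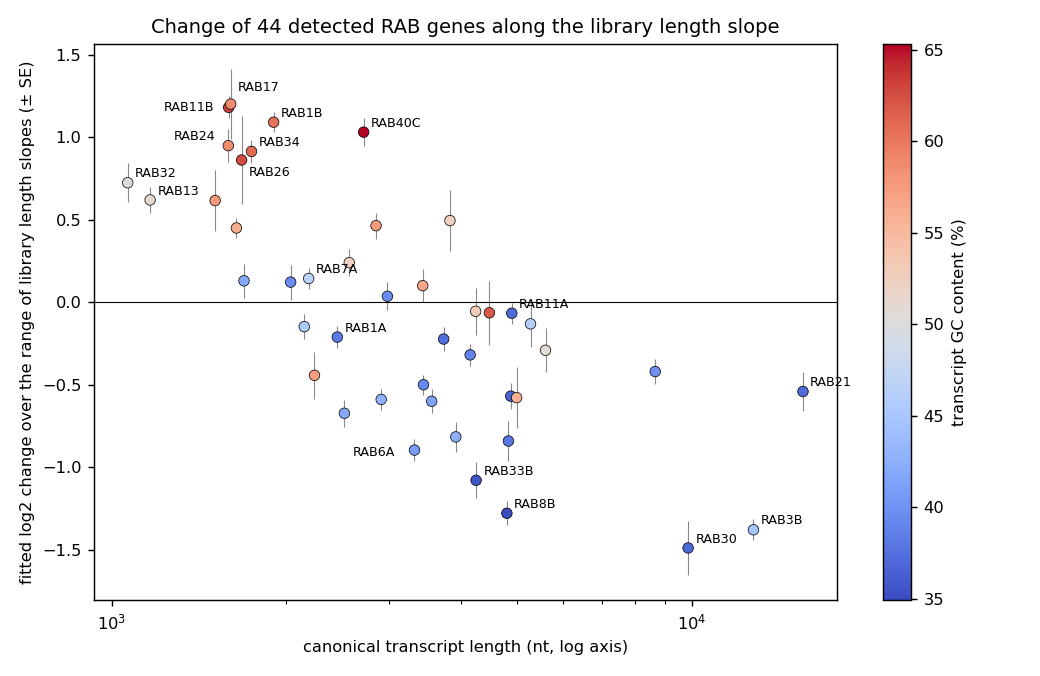
Fitted log2 change over the range of library length slopes (± SE, y axis) against canonical transcript length (log axis) for the 44 detected RAB genes, coloured by transcript GC content. Short GC-rich transcripts such as RAB11B and RAB1B lie above 0 and long AT-rich ones such as RAB8B and RAB30 below it.

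Length and base composition went with the direction. The 14 genes that were higher had a median transcript of 1657 nt (1065 to 3829) and a median GC content of 58.1%. For the 19 lower genes these were 4149 nt (2236 to 15558) and 39.3%, and the 11 not called stood between, at 3437 nt and 46.1%. Over the 44 genes the fitted change had a Spearman correlation of -0.722 with length and 0.736 with GC content, as a description across genes that share the same 8 libraries. Over 11591 detected genes with a length these were -0.664 and 0.644. The axis was itself defined by transcript length on nearly all of these genes, so their correlation with length was built in. The RAB genes were left out of its definition, and their value shows only that they followed the same axis. Length and GC content were themselves related (-0.54 over the 44 RAB genes), and their parts in the change were not separated. Some paralogs were called in opposite directions: RAB1B, RAB5C and RAB8A rose where RAB1A, RAB5A and RAB8B fell. Others were called in the same direction: RAB2A and RAB2B both fell, as did RAB22A and RAB31, and RAB40B and RAB40C both rose. RAB11B rose while RAB11A was not called.

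Replicates 2, 7 and 8 hold most of the range of the axis, since the other 5 libraries lie at positions from 0 to 0.13. Leaving out replicates 2, 7 and 8 was a choice made after seeing the data. The median ratio of highest to lowest CPM among the 44 genes then went from 1.52 to 1.14. Such a ratio can only stay or fall when libraries are left out, so this direction was fixed in advance. Its value over all detected genes is not given. In the remaining 5 libraries RAB3B lay between 186 and 207 CPM, RAB1B between 215 and 241, RAB11B between 68.6 and 81.7 and RAB30 between 7.60 and 8.94 CPM. The largest remaining ratio was 1.84, for RAB26. Fitted on those 5 libraries, which leave little range for a slope, edgeR's quasi-likelihood test called 0 RAB genes and 0 of 12275 detected genes. At an unadjusted p below 0.05 it had 6 RAB genes, 4 higher and 2 lower, and 1561 higher and 1465 lower genes in all. Of the 44 detected genes, 16 had their highest value in replicate 8 and 15 their lowest there. The same count over all detected genes is not given, so this is not read as particular to RAB genes. With replicate 8 alone left out, 11 RAB genes were called higher and 15 lower (31% and 30.3% of all detected genes), and RAB1A, RAB2A, RAB8A, RAB20, RAB36, RAB40B and RAB42 were no longer called. Without replicate 2 these were 13 and 15 (35.1% and 34% of all), and RAB1A, RAB2A, RAB8A, RAB26, RAB36 and RAB42 were no longer called. RAB7A was then called higher (log2 change 0.175, quasi-likelihood, adjusted p = 0.0323). Without replicate 7 the counts were 15 and 21 (38.1% and 38% of all), with RAB7A (0.143, adjusted p = 0.0471) newly called higher and RAB12 and RAB6B lower. RAB7A was also called higher with no filter on low counts (0.194, adjusted p = 0.0377).

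**Figure D4:**
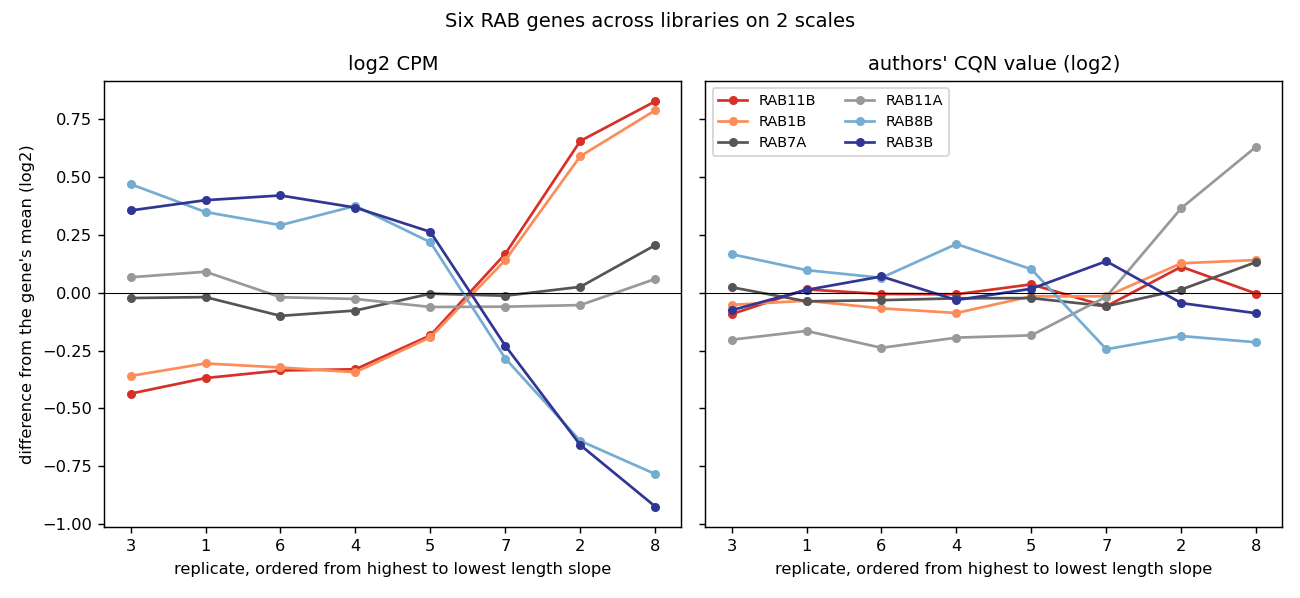
Difference of 6 RAB genes from their own mean (log2, y axis) in each replicate, ordered from the highest to the lowest length slope, on log2 CPM (left) and on the authors' CQN values (right). On CPM, RAB11B and RAB1B climb and RAB8B and RAB3B drop in replicates 7, 2 and 8 while RAB7A and RAB11A span 0.31 and 0.15; on CQN, RAB11B, RAB1B and RAB3B span at most 0.23, RAB8B is still lower in those libraries and RAB11A is high in replicates 2 and 8.

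On the authors' CQN values most of this movement was smaller. The median range of the 44 genes over 8 libraries was 0.60 on log2(CPM + 0.1) and 0.41 on CQN. Over all 11980 detected genes the medians were 0.76 and 0.46. The range was smaller on CQN for 34 of the 44 genes: for RAB3B it went from 1.34 to 0.23, for RAB11B from 1.26 to 0.21, for RAB1B from 1.15 to 0.23 and for RAB34 from 1.01 to 0.22. For the other 10 it was not smaller. The same count over all detected genes is not given, and their median range was smaller on CQN as well. RAB11A, the steadiest gene on CPM, went from 0.15 to 0.87, since its CQN values were 8.46 in replicate 2 and 8.72 in replicate 8 above a lowest value of 7.85. RAB22A went from 0.46 to 0.88, RAB42 from 0.53 to 1.27 and RAB30 from 1.5 to 1.62. The other 6 were RAB2A, RAB5B, RAB6B, RAB14, RAB28 and RAB36. Whether these genes vary between libraries therefore depends on the scale for RAB11A, RAB22A and RAB42 in one direction and for RAB3B, RAB11B and RAB1B in the other.

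**Figure D5:**
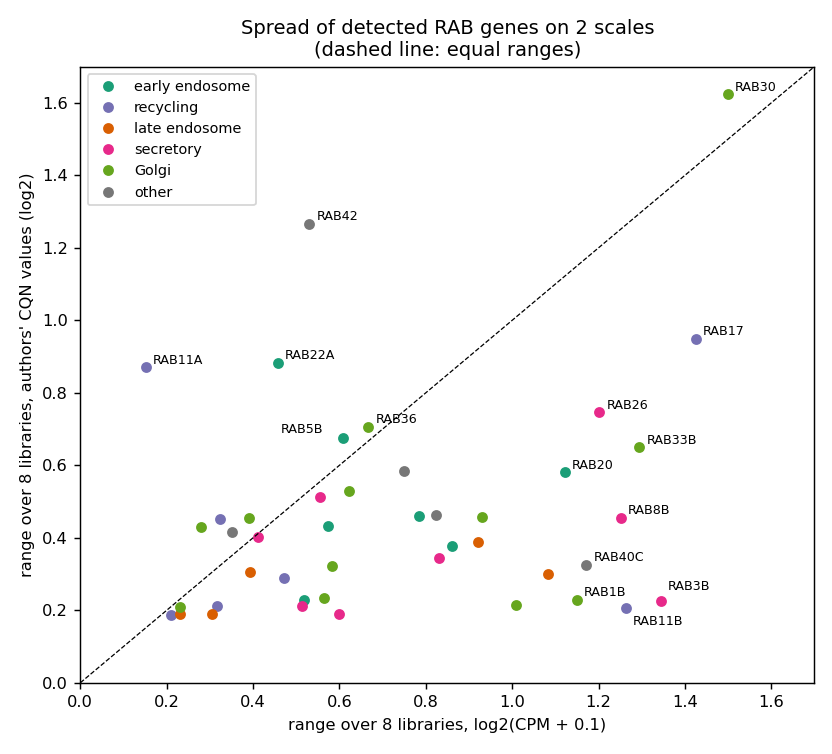
Range over 8 libraries of each detected RAB gene on log2(CPM + 0.1) (x axis) against its range on the authors' CQN values (y axis, log2), coloured by role. The 34 genes below the dashed line of equal ranges include RAB3B, RAB11B, RAB1B and RAB8B, and RAB11A, RAB22A, RAB42 and RAB30 lie above it.

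The median coefficient of variation over libraries was 15.2% for the 44 RAB genes and 19.2% for all detected genes, which were not matched for abundance. Tested for goodness of fit to edgeR's dispersion trend, which sets each gene against genes of like abundance, 0 of 44 RAB genes lay above the trend at an adjusted p below 0.05, where 4.83% of all detected genes did. The lowest adjusted p among RAB genes was 0.186, for RAB30. Before adjustment 5 RAB genes and 1544 of all genes had a p below 0.05. The count depended on the trend: with the trend that DESeq2 fits, 10 RAB genes were above it (RAB1B, RAB3B, RAB8B, RAB11B, RAB17, RAB24, RAB26, RAB30, RAB33B and RAB40C) among 2879 of all genes. With CQN values as offsets RAB22A (edgeR, adjusted p = 0.0241) and RAB30 (0.0051) were above it.

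The proteins that load, unload and carry RAB GTPases were nearly all expressed. Of 114 regulators and effectors on a list drawn up for this purpose, 106 (93.0%) were detected. The share was 51.3% for all listed genes, which include small RNA genes, and 58.1% for those with a length. Regulators detected were 8 of 8 carriers, 24 of 24 GTPase-activating proteins and 27 of 29 exchange factors. Of effectors, 23 of 24 endosomal ones and 24 of 29 secretory and Golgi ones were detected. The 8 not detected were the exchange factors CCZ1 and DENND1C, the endosomal effector RAB11FIP4, and SYTL1, SYTL5, RIMS1, RIMS2 and RPH3A among the secretory effectors, of which the RIMS genes and RPH3A are known from synaptic release. CCZ1 and RAB11FIP4 stood near the threshold and were detected at 0.5 CPM. CCZ1 ran from 0.629 to 1.66 CPM (mean 1.08) and RAB11FIP4 from 0.576 to 1.24 CPM (mean 0.968). The dissociation inhibitor GDI2 was the highest carrier, at 357 ± 22.9 CPM (SD, n = 8).

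Other leaders of their classes by mean CPM were TBC1D4 (129) and RAB3GAP1 (115) among GTPase-activating proteins, the former acting on RAB10 in glucose carrier traffic and the latter on RAB3 proteins. DENND5A (141) and GAPVD1 (95.2), an activator of RAB5, led the exchange factors. EHD1 (138) and ACAP2 (121), an effector of RAB35, led the endosomal effectors, and GOLGB1 (154) and MYO5A (149) the secretory and Golgi effectors. SYTL4, an effector of RAB27A on Weibel-Palade bodies, stood at 68.4 ± 11.4 CPM (SD, n = 8), and MYRIP, another such effector, at 4.52 CPM.

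Of the detected regulators 25 were higher and 53 lower toward replicate 8 in the length slope fit, with secretory and Golgi effectors at 1 higher and 13 lower of 24. Over all detected genes 37.4% were higher and 35.3% lower. Above the variation trend were 5 of 106, against 4.83% of all detected genes. USP6NL, a GTPase-activating protein for RAB5, ran from 16.7 through 33.8 to 246 CPM (edgeR goodness-of-fit, adjusted p = 3.22e-19), with 246 in replicate 2. EEA1, the tether that RAB5 recruits to early endosomes, ran from 20.9 through 68.3 to 83.2 CPM (adjusted p = 3.21e-04). The golgins GCC2 (19.4, 58.1 and 70.7 CPM) and GOLGA4 (64.6, 174 and 197 CPM) and the exchange factor DENND4A (18.3, 49.9 and 58.5 CPM) followed, with adjusted p-values of 0.00135, 0.0337 and 0.0191. EEA1, GCC2, GOLGA4 and DENND4A also fell toward replicate 8 in the length slope fit, EEA1 by 2.07 on the log2 scale.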

How the data were processed

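Polyadenylated RNA of 8 hCMEC/D3 replicates was sequenced from TruSeq v2 libraries. The authors deposited, per the file headers, raw counts per gene and CQN values from conditional quantile normalisation. The range of the deposited CQN values fits a log2 scale, which no source states. Reads were handled with CASAVA 1.9, TopHat2 2.0.6 and HTSeq on hg19, per the submitters' processing notes. The annotation, strand setting and handling of ambiguous reads are not given in the sources used here, so reads of overlapping or antisense genes cannot be told apart. RAB members with over 25% of their 50-base stretches in another gene number 12, and their levels are less certain. They are RAB1B, RAB4B, RAB5C, RAB6A, RAB6C, RAB8A, RAB13, RAB23, RAB24, RAB40A, RAB41 and RAB43. This count includes genes that overlap the member's own locus. With those left out, the share exceeded 25% only for RAB6C (56.3%), RAB43 (41.3%), RAB13 (31.0%) and RAB40A (25.5%). It was 21.2% for RAB6A, 6.3% for RAB8A, 4.7% for RAB1B and 0% for RAB4B, RAB5C, RAB23, RAB24 and RAB41. Where it was 0%, the uncertainty rests on how overlapping genes were counted.

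CPM used TMM library sizes (edgeR 4.0.16, R 4.3.3). RPKM is CPM divided by the GENCODE 44 canonical transcript length on GRCh37, for genes matched by symbol or RefSeq synonym. Coordinates, printed 1-based, come from the deposited table, which was read as counting from 0: of 17954 genes matched by symbol, 4527 starts were 1 less than in that annotation, 623 were equal and 12804 differed otherwise, so gene models were not the same. Pair ratios used log2(RPKM + 0.1) and exact sign-flip permutation tests, adjusted over 20 pairs. The variation test was edgeR's goodness-of-fit test and the length slope test its quasi-likelihood test, both adjusted over all detected genes. On simulated counts for 11980 genes, the variation test found 173 of 200 genes raised 4-fold in 1 library and 6 others, and the slope test 199 of 200 genes changed 4-fold over the range and 7 others. With no gene changed, the variation test called 0. Alternatives were another scaling (DESeq2 1.42.0), thresholds, lengths, pseudocounts, CQN values and leaving out libraries.

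All samples form 1 group, so no groups were compared. Library totals bound counting error, and a count of 0 was read against 3 halved counts. Intervals cover counting error only. The table held 0 rows without a gene name and 0 columns of other samples. Members, role lists, pairs and the regulator list were chosen with earlier results of these data known. The text names every member, giving library values for the 3 highest of each role, all pair genes and the 3 members on either side of the detection threshold. It names regulators above the variation trend or among the 2 highest of their class, of which 1 is not reported here. Regulators not detected, SYTL4 and MYRIP were named after their values were seen.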

Additional observations from a re-analysis of the deposited data

Results flagged for a closer look

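In 58 checks of a lone extreme value (Dixon's criterion on 8 libraries, applied to the CPM of detected RAB genes, the pair ratios with both genes detected and the RAB share of counts), 3 values stood apart from the other libraries. Chance alone flags about 1 group in 20. The CPM of RAB7A was 338 in replicate 8, with the next highest library at 298 and the lowest at 273. The CPM of RAB9A was 24.5 in replicate 7, with the next at 20.9 and the lowest at 18.6. The log2 RPKM ratio of RAB7A to RAB9A was 3.45 in replicate 7, with the next at 3.73 and the highest at 3.90, so this value and that of RAB9A rest on the same library.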

How the results depend on the processing

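Pair ratios that were called kept their direction with a pseudocount of 1, where those with a gene not detected were smaller, and without any 1 replicate. With CPM and no length, the log2 ratio of RAB22A to RAB31 was 0.11, RAB11A to RAB11B 1.37, RAB3B to RAB3D 1.41, RAB8A to RAB8B -0.0063, RAB10 to RAB13 0.69 and RAB7A to RAB5C 0.43. With the length of all exons, RAB8A to RAB8B was 0.043, RAB10 to RAB13 0.28, RAB7A to RAB5C -0.95 and RAB11B to RAB7A -0.017. On CQN values, RAB11A to RAB11B was 0.25, RAB3B to RAB3D 0.74, RAB10 to RAB13 0.10 and RAB7A to RAB5C 0.40. CQN gives no value for 1 gene of 6 pairs, and those were not run. The cause was not tested.

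Role medians in log2 for early endosome, recycling, late endosome, secretory, Golgi and other genes moved from 4.29, 2.54, 4.14, 3.70, -0.01 and 1.82 to 6.36, 4.30, 4.81, 5.83, 2.55 and 2.96 on CPM and to 6.65, 7.69, 6.71, 6.64, 5.59 and 4.86 on CQN, which are other units. Over detected members only, the last 5 were 5.45, 4.58, 4.34, 3.92 and 3.11. RAB genes detected were 44 without any 1 replicate, 45 at 0.5 CPM (54.9% of all genes), 49 at 10 counts (62.8%) and 38 at 1 RPKM (44.6%).

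The variation count was 579 genes and 0 RAB genes. With DESeq2's trend it was 2879 and 10, with CQN offsets 746 and 2, and without 1 replicate 401 to 505 and 0. Length slope calls without 1 replicate were 3741 to 4570 higher and 3654 to 4566 lower, with 11 to 15 and 15 to 21 RAB genes. In the 5 libraries with a positive length slope, added after seeing the data, the variation count was 299 and length slope calls were 0 in each direction, for all genes and for RAB genes. There the fitted change turned for RAB13 (-0.002), RAB17 (-0.32), RAB22A (0.001), RAB26 (-0.075), RAB30 (0.11), RAB36 (0.275) and RAB8A (-0.022), none of them called. In the same libraries all called pairs kept their direction, with RAB4A to RAB4B not read. No paired analysis was possible because all samples form 1 group.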
